A study of Homo sapiens with 12 samples.

Results

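The 7 genes described here make, cut or bind hyaluronan: the synthases HAS1, HAS2 and HAS3, the degradation genes CEMIP, TMEM2 and HYAL2, and the receptor gene CD44. They are 7 of the 26334 gene symbols in the deposited table, and all 7 were found there by symbol. CEMIP was picked because its value had risen with doxycycline in these libraries, and the other 6 were added for their known function with their values in the 4 groups already known. The differences of these 7 genes between groups are therefore a description, and no p-value is given for them.

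RNA was sequenced from HK-2, a human proximal tubule epithelial cell line that carried a doxycycline-inducible PRCC-TFE3 gene, the fusion found in translocation renal cell carcinoma. After 48 h there were 3 libraries in each of 4 groups. The Dox + inhibitor group received doxycycline (Dox) and MSC2530818 at 100 nM, an inhibitor of the Mediator kinases CDK8 and CDK19. The Dox group received Dox with DMSO, the inhibitor group MSC2530818 without Dox, and the vehicle group DMSO without Dox. All 4 groups were of the inducible line and grew under puromycin and blasticidin with Tet-approved serum. Dox was not given to cells lacking the fusion gene, so Dox itself and the fusion cannot be told apart. The labels do not say whether the line is 1 clone or what dose of Dox was used. Replicates are described in the labels as independent and biological.

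Hyaluronan is a long unbranched sugar polymer of the extracellular matrix. The HAS enzymes build it at the plasma membrane from the nucleotide sugars UDP-glucuronic acid and UDP-N-acetylglucosamine and push it out of the cell as it grows. Hyaluronidases cut it, at the cell surface and then in lysosomes, where exoglycosidases remove the remaining sugars one by one, and CD44 binds it at the surface and passes signals to the cytoskeleton through the ERM proteins. In the kidney hyaluronan is rich in the inner medulla, sparse in the cortex, and known to accumulate there after tubular injury.

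CEMIP (also HYBID or KIAA1199), a secreted or membrane-bound protein needed for hyaluronan breakdown in fibroblasts, lies on chr15:80779343-80951776, plus strand (GRCh38, GENCODE). TMEM2 (named CEMIP2 in the annotation), a transmembrane relative of CEMIP with hyaluronidase activity described in mouse, lies on chr9:71683366-71816690, minus strand. HYAL2, a surface-anchored hyaluronidase that gives intermediate fragments, lies on chr3:50317790-50322906, minus strand. HAS3, a synthase, lies on chr16:69105564-69118719, plus strand, and HAS1 on chr19:51713112-51723994, minus strand. CD44 lies on chr11:35138870-35232402, plus strand, and has 39 annotated transcripts, 26 of them protein-coding, so a value summed per gene cannot separate its splice forms.

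Because the inducible factor binds DNA, the 250 bases before the annotated start are shown for the 3 genes with the largest Dox differences, picked with those values known. TFE3 and its relatives bind CACGTG, and the strongest sites extend it to TCACGTG. The windows come from the RefSeq promoter table (GRCh38.p14), which matched 6 of the 7 genes and has no entry for HAS2. They are CEMIP chr15:80779120-80779369, HAS3 chr16:69107290-69107539 and CD44 chr11:35138921-35139170, each on the plus strand and written 5′ to 3′. Capitals mark CACGTG.
CEMIP: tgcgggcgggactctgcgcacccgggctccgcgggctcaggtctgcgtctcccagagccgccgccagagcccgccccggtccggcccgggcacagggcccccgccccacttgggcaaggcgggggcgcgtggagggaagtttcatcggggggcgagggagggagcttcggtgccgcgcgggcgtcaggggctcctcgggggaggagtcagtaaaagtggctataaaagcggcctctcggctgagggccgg
HAS3: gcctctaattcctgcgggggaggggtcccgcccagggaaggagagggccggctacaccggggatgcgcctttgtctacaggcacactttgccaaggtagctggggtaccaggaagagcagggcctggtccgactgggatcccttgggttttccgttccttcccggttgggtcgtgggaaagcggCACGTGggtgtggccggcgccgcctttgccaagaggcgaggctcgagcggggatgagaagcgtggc
CD44: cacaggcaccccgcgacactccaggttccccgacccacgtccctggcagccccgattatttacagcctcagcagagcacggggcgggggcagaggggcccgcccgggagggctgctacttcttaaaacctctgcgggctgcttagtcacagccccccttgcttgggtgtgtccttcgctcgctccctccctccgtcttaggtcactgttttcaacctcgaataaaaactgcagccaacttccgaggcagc
Of the 6 windows 1, that of HAS3, held CACGTG, with its first base 66 bases before the start. Over the 35116 RefSeq promoter windows of this length, 6.34% held CACGTG on either strand. TCACGTG, which contains CACGTG, was in none of the 6 windows and in 3.31% of all. TCATGTG, a variant bound by the same family, was in none of the 6 and in 2.52% of all, and TGACTCA, the AP-1 site, was in none of the 6 and in 4.2% of all. A match or its absence describes the letters of these windows and says nothing of binding. The HAS3 and CD44 windows lie inside the GENCODE genes, which begin further upstream, so other starts exist.

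FPKM is a fragment count scaled by transcript length and by library, so levels of different genes can be set side by side. In the fit, values were taken as log2(FPKM + 1), and a gene was tested when it reached 1 FPKM in at least 3 of the 12 libraries. Of the 7 hyaluronan genes 5 passed this filter, and HAS1 and HAS2 did not. All differences below are on the log2(FPKM + 1) scale from one limma fit to the 12 libraries, given with SE, and a gene is called when its Benjamini-Hochberg adjusted p over the 12649 tested genes is under 0.05.

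FPKM sums ran from 429208 to 473950 per library, and 11952 to 12333 genes reached 1 FPKM. Read totals are not in the table, so depth is unknown and no counting interval is given. Within groups Pearson r across genes, which are not independent replicates, lay between 0.979 and 0.993. TFE3 (chrX:49028726-49043486, minus strand), whose value holds reads of both the resident gene and the fusion, stood at 87.6, 83.2 and 81.7 FPKM with Dox + inhibitor, 149, 154 and 146 with Dox, 29.7, 27.4 and 26.3 with the inhibitor, and 38.9, 35.8 and 32.7 in vehicle. The libraries with Dox were thus all above those without it, and the Dox + inhibitor level was 0.562 of the Dox level. The line was checked against cell type markers. Of 15 proximal tubule markers 10 stayed below 1 FPKM in every library, among them LRP2 at 0 to 0.01 and HNF4A at 0 to 0.03, whereas PAX8 (81.6 to 135) and GGT1 (36.3 to 51.2) were present. Of 6 epithelial markers 5 were present, and CDH1 was at 0 to 0.01. All 5 endothelial markers, 6 of 7 leukocyte markers and 5 of 7 fibroblast markers stayed below 1 FPKM, with PTPRC at 0 to 0.02.

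**Figure D1:**
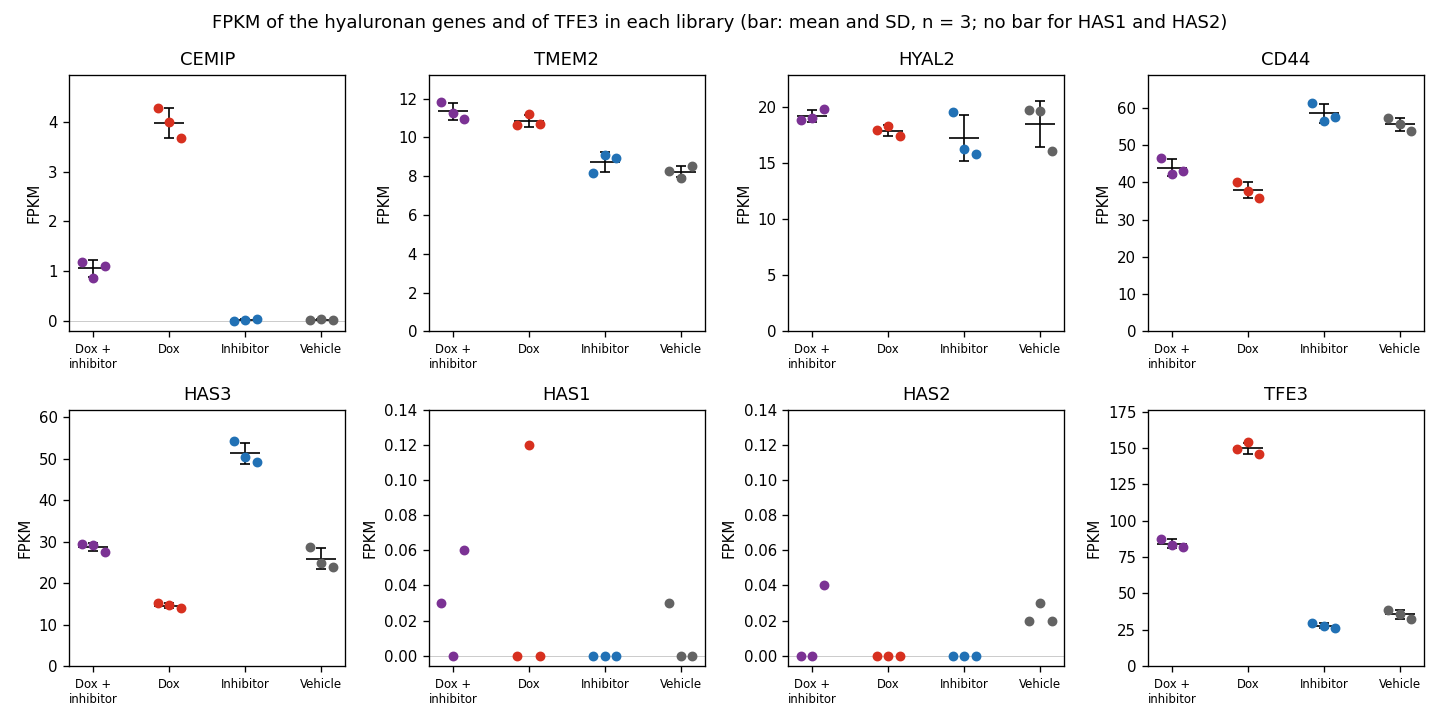
FPKM of the 7 hyaluronan genes and of TFE3 in each of the 12 libraries, by group; points are libraries, and bars give mean and SD (n = 3), left out for HAS1 and HAS2. CEMIP lies between 3.68 and 4.28 FPKM with Dox and below 0.05 FPKM without it, and HAS3 is lowest with Dox and highest with the inhibitor.

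The 7 genes stood at very different levels, in an order that changed at 1 place. By mean FPKM the order was CD44, HAS3, HYAL2, TMEM2 and then CEMIP in the Dox + inhibitor, inhibitor and vehicle groups, apart from the values near 0 described below. In the Dox group HYAL2, at 17.4 to 18.3 FPKM, lay above HAS3, at 13.9 to 15.2 FPKM, with no overlap between libraries. Neighbours from CD44 down to TMEM2 did not overlap within any group. CEMIP was above HAS1 and HAS2 in the Dox + inhibitor and Dox libraries, and overlapped with both in the inhibitor and vehicle libraries.

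The FPKM ratio of HAS3 to HYAL2, a synthase to a hyaluronidase, averaged 1.49 ± 0.09 with Dox + inhibitor, 0.814 ± 0.024 with Dox, 2.99 ± 0.19 with the inhibitor and 1.40 ± 0.12 in vehicle (SD, n = 3). It was under 1 in each of the 3 Dox libraries and over 1 in the other 9. The ratio of HAS3 to CD44, the synthase to the receptor, averaged 0.655 ± 0.033 with Dox + inhibitor, 0.386 ± 0.006 with Dox, 0.877 ± 0.020 with the inhibitor and 0.465 ± 0.032 in vehicle.

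CEMIP was close to 0 without Dox and present with it. Its FPKM was 4.28, 4 and 3.68 in the Dox libraries, against 0.01, 0.03 and 0.02 in the vehicle libraries. The 3 Dox libraries were far above the 3 vehicle libraries, a log2 difference of 2.29 ± 0.09. In bulk RNA, more cells with the transcript and more transcript per cell cannot be told apart. The added 1 FPKM holds that difference down, and with 0.1 added it was 5.09. Since CEMIP reached 1 FPKM only where Dox was given, it entered the fit through those libraries and had to differ. On the other strand its exons overlap those of MESD (MESDC2 in the table), which stood at 13.8 to 14.5 FPKM with Dox and 13.8 to 14.2 FPKM in vehicle, and how reads were assigned by strand is not given in the sources used here.

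With the inhibitor present, Dox gave a smaller CEMIP value. The Dox + inhibitor libraries stood at 1.19, 0.87 and 1.11 FPKM, against 0, 0.02 and 0.04 FPKM in the inhibitor libraries, a log2 difference of 1.01 ± 0.09 (3.27 with 0.1 added). Set against Dox alone, the Dox + inhibitor mean was 26.5% of the Dox mean and the log2 difference was -1.28 ± 0.09, with no overlap between libraries. The inhibitor without Dox left CEMIP near 0, with a difference of -0.00 ± 0.09 from vehicle. The Dox difference with the inhibitor minus that without it was -1.28 ± 0.12, and among alternatives it ranged from -1.82 to -1.19. TFE3, which in these groups reports the inducible gene together with the resident one, was also lower with Dox + inhibitor than with Dox, by -0.82 ± 0.07, and its part in the CEMIP value was not tested. The 7 fibroblast markers, 2 of which (COL1A1 and LUM) reached 1 FPKM, summed to 5.64 to 7.04 FPKM with Dox + inhibitor, 10.66 to 11.97 with Dox, 4.77 to 7.09 with the inhibitor and 6.17 to 6.79 in vehicle. LUM was at 7.07 to 7.89 FPKM with Dox and 1.32 to 2.73 in vehicle, whereas COL1A1 was at 3.49 to 4.02 and 3.87 to 4.82. The higher sum with Dox was thus that of LUM, and the part of these markers was not tested either.

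TMEM2, the transmembrane relative, was moderately higher with Dox whether or not the inhibitor was there. Its FPKM was 10.7, 11.2 and 10.7 in the Dox libraries, against 8.25, 7.93 and 8.53 in the vehicle libraries. All Dox values were above all vehicle values, by 0.36 ± 0.06, and the Dox mean was 132% of the vehicle mean. The Dox + inhibitor libraries stood at 11.8, 11.3 and 10.95 FPKM, against 8.16, 9.08 and 8.96 FPKM in the inhibitor libraries, again without overlap and by 0.34 ± 0.06. TMEM2 and CEMIP thus shared a direction with Dox and not a size.

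TMEM2 was not called for the inhibitor in the values as deposited. The inhibitor group differed from vehicle by 0.07 ± 0.06, which was not called, although after median-ratio scaling the difference was 0.18 and after quantile normalization 0.19, both called. Dox + inhibitor differed from Dox by 0.06 ± 0.06, not called, and the interaction was -0.02 ± 0.08.

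HYAL2, the anchored hyaluronidase, was called in none of the 5 comparisons. Its FPKM was 18.02, 18.34 and 17.42 with Dox, against 19.7, 19.6 and 16.1 in vehicle, which overlap. The difference was -0.04 ± 0.09, and -0.13 to 0.01 among alternatives. With Dox + inhibitor HYAL2 stood at 18.9, 19.1 and 19.9 FPKM, above the 3 Dox libraries by 0.10 ± 0.09 and overlapping with the inhibitor libraries at 19.6, 16.3 and 15.9 FPKM. The inhibitor group differed from vehicle by -0.09 ± 0.09. Exons of HYAL2 overlap those of TUSC2 on the same strand, which stood at 13.7 to 17.7 FPKM over the 12 libraries, so reads could be shared between them.

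HAS3, the one synthase well above 0, was lower with Dox and higher with the inhibitor. Its FPKM was 15.2, 14.7 and 13.9 in the Dox libraries, against 28.75, 25.0 and 23.9 in the vehicle libraries. Every Dox library lay below every vehicle library, by -0.78 ± 0.07, and the Dox mean was 56.4% of the vehicle mean. The inhibitor libraries stood at 54.2, 50.4 and 49.3 FPKM, above all vehicle libraries by 0.96 ± 0.07, or 198% of the vehicle mean. HAS3 thus lay below vehicle with one single treatment and above it with the other.

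The Dox + inhibitor libraries held HAS3 at 29.4, 29.2 and 27.6 FPKM. These values were below the inhibitor libraries by -0.81 ± 0.07 (56.0% of the inhibitor mean) and above the Dox libraries by 0.93 ± 0.07 (197% of the Dox mean). The interaction was -0.03 ± 0.10 and not called, with values of -0.11 to 0.02 among alternatives. The exons of HAS3 overlap CHTF8 on the other strand, at 38.8 to 41.4 FPKM with Dox + inhibitor, 37.2 to 41.0 with Dox, 41.65 to 49.2 with the inhibitor and 37.7 to 44.7 in vehicle.

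CD44, the receptor with the highest level of the 7, was lower with Dox. Its FPKM was 40.0, 37.8 and 35.8 in the Dox libraries, against 57.3, 55.6 and 53.8 in the vehicle libraries. All Dox values were below all vehicle values, by -0.54 ± 0.06, and the Dox mean was 68.1% of the vehicle mean. With the inhibitor in both groups, Dox + inhibitor stood at 46.5, 42.15 and 43.0 FPKM, against 61.3, 56.5 and 57.65 FPKM for the inhibitor, lower by -0.41 ± 0.06 at 75.0% of its mean. CD44 was thus lower in each comparison of Dox with its own control.

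The inhibitor group differed from vehicle in CD44 by 0.07 ± 0.06, not called, with overlapping libraries. After median-ratio scaling that difference was 0.19 and called. Dox + inhibitor was higher than Dox by 0.21 ± 0.06, called and without overlap. That call was lost without Dox replicate 2 (0.21), without Dox replicate 3 (0.17) or without Dox + inhibitor replicate 1 (0.17). The interaction was 0.14 ± 0.08 and not called.

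HAS1 and HAS2 were listed at or near 0 throughout. HAS1 stood at 0.03, 0 and 0.06 FPKM with Dox + inhibitor, 0, 0.12 and 0 with Dox, 0 in all 3 inhibitor libraries, and 0.03, 0 and 0 in vehicle. HAS2 (chr8:121612116-121641390, minus strand) stood at 0, 0 and 0.04 FPKM with Dox + inhibitor, 0 in all 3 Dox and all 3 inhibitor libraries, and 0.02, 0.03 and 0.02 in vehicle. Each was at 0 in 8 of the 12 libraries, the 3 vehicle libraries were the one group with HAS2 above 0 throughout, and the values are too close to the table's last decimal for any comparison. HAS2-AS1, the antisense gene that overlaps HAS2, was at 0 to 0.05 FPKM.

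Across the 5 tested genes, 4 were called for Dox against vehicle, CEMIP and TMEM2 higher and HAS3 and CD44 lower, where 17.9% of all tested genes were called (10.6% higher, 7.31% lower). The same 4, in the same directions, were called for Dox + inhibitor against the inhibitor, where 18.2% of all genes were called (12.2% higher, 6.06% lower). For the inhibitor against vehicle 1 was called, HAS3, against 38% of all genes (11.7% higher, 26.3% lower). For Dox + inhibitor against Dox 3 were called, HAS3 and CD44 higher and CEMIP lower, against 32.1% of all genes (11.3% higher, 20.8% lower). For the interaction 1 was called, CEMIP, against 2.82% of all genes (0.909% higher, 1.91% lower). Groups that did not overlap were common among all genes, at 39% for Dox against vehicle, 36.9% for Dox + inhibitor against the inhibitor, 43.7% for the inhibitor against vehicle and 52% for Dox + inhibitor against Dox. As the 7 genes were chosen on these values, nothing is read from the counts.

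Scaling matters to the balance of calls over all genes. Of the calls for Dox against vehicle 59.2% were higher as deposited, 43.4% once libraries were scaled by median ratios and 43.3% once their quantiles were matched. The same shares were 66.7%, 35.3% and 41% for Dox + inhibitor against the inhibitor, 30.8%, 55% and 49.7% for the inhibitor against vehicle, and 35.3%, 53.9% and 50.3% for Dox + inhibitor against Dox. For the inhibitor against vehicle the median gene stood at -0.12 as deposited and at -0.01 after median-ratio scaling. The HAS3 difference in that comparison stayed between 0.91 and 1.08 among all alternatives.

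**Figure D2:**
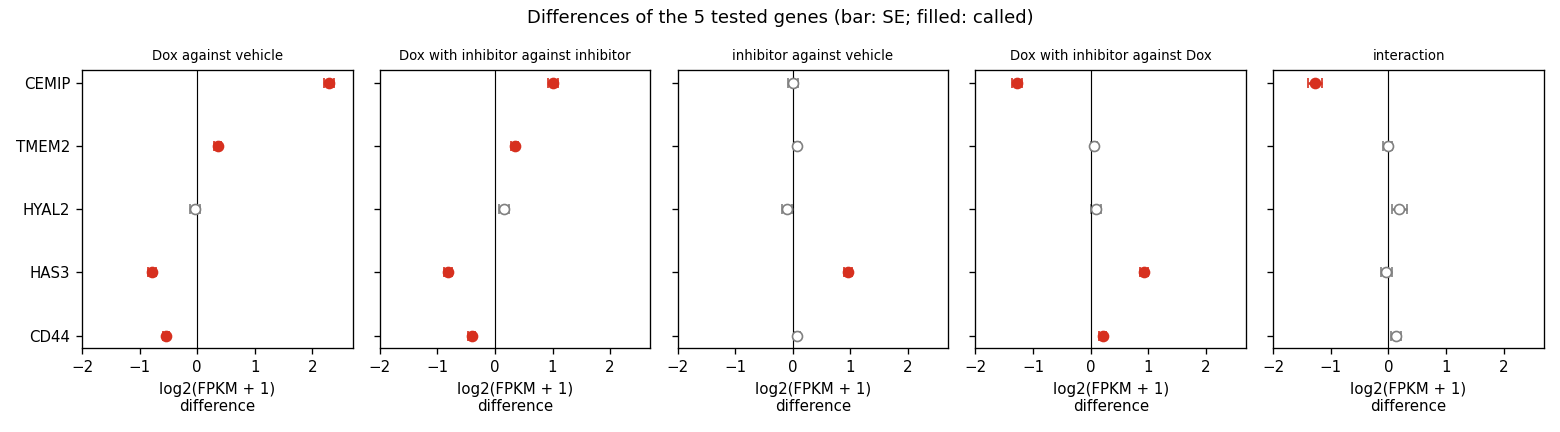
Log2(FPKM + 1) differences of the 5 tested hyaluronan genes in each comparison, with SE bars from the limma fit; filled points are called. HAS3 sits at -0.78 for Dox against vehicle and 0.96 for the inhibitor against vehicle, and CEMIP is the one filled point of the interaction.

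Around these 7 genes, 59 other genes of hyaluronan metabolism were followed, all of them in the table and 35 of them tested. With Dox against vehicle 7 of the 35 were called higher and 1 lower, where 10.6% of all tested genes were called higher and 7.31% lower, and their median difference was 0.10 beside 0.04 over all tested genes. Without replicate 1 of all groups, a setting chosen after seeing the data, 9 were called higher and 1 lower. With the inhibitor against vehicle 8 were called higher and 8 lower, where 11.7% of all tested genes were called higher and 26.3% lower, and the median was -0.03 beside -0.12 over all genes. After median-ratio scaling those counts were 10 and 4, and without replicate 1 of all groups they were 10 and 10. PTX3 and HYAL3, among those called higher with the inhibitor, passed the filter through libraries with the inhibitor. TNFAIP6, called lower with Dox, passed it through libraries outside the Dox group. The calls of these genes are no support for the counts. The lists were compiled with earlier results of these data known, and all adjusted p-values in the next paragraphs come from the limma fit over all tested genes.

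The lysosomal exoglycosidases take apart the fragments that hyaluronidases leave, and 2 of them were followed. HEXA, a beta-hexosaminidase subunit, stood at 49.5, 50.2 and 46.5 FPKM with Dox, against 33.65, 30.3 and 30.4 FPKM in vehicle. All Dox libraries were above all vehicle libraries, a rise of 0.62 ± 0.08 (adjusted p = 0.00035). GUSB, beta-glucuronidase, differed by 0.07 ± 0.07 (adjusted p = 0.52). HEXA with the inhibitor present was at 0.22 ± 0.08 (adjusted p = 0.079, and 0.012 with the replicate number as a block). That difference was also called without inhibitor replicate 1 (0.31) and without replicate 1 of all groups (0.24).

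With the inhibitor alone GUSB fell to 13.9 ± 1.2 FPKM, against 17.6 ± 1.1 FPKM in vehicle (-0.32 ± 0.07, adjusted p = 0.0044), a call lost after quantile normalization (-0.22). HEXA differed by -0.13 ± 0.08 (adjusted p = 0.22), and was called without inhibitor replicate 1 (-0.22) and without replicate 1 of all groups (-0.17). CD68, a lysosomal membrane gene in the leukocyte marker list, also differed between groups. It stood at 29.5 to 33.8 FPKM with Dox + inhibitor, 52.9 to 58.4 with Dox, 25.4 to 30.95 with the inhibitor and 34.2 to 42.3 in vehicle. The summed leukocyte list followed it (30.0 to 34.2, 53.4 to 58.9, 25.8 to 31.4 and 34.7 to 42.8 FPKM in the same order), while its other 6 markers stayed below 1 FPKM in every library.

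Of the 5 other hyaluronidase genes 1 was tested. HYAL3, whose product is thought to have little activity of its own, stood at 2.08, 2.10 and 2.10 FPKM with the inhibitor, against 0.99, 1.27 and 0.66 FPKM in vehicle. The difference of 0.66 ± 0.14 is a description: outside the inhibitor groups HYAL3 reached 1 FPKM in 1 library, vehicle replicate 2, so it passed the filter through the groups where it was high. With Dox it differed from vehicle by -0.11 ± 0.14 (adjusted p = 0.62).

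Genes listed under precursor supply act between glucose and the nucleotide sugars that HAS enzymes join, and not all of them run towards those sugars. They were called higher with Dox in 3 of 14 cases and lower in none, beside 10.6% and 7.31% of all tested genes. The count therefore gives no direction of supply. UAP1L1, a paralogue of the enzyme that makes UDP-N-acetylglucosamine, stood at 17.5, 19.0 and 18.5 FPKM with Dox, against 2.51, 2.66 and 2.12 FPKM in vehicle, a rise of 2.5 ± 0.08 (adjusted p = 1.2e-08). Its paralogue UAP1 differed by -0.07 ± 0.13 (adjusted p = 0.73). GNPDA1, a deaminase that turns glucosamine phosphate back towards glycolysis, stood at 70.1, 71.5 and 67.2 FPKM with Dox, against 31.1, 29.1 and 29.2 FPKM in vehicle (1.20 ± 0.08, adjusted p = 1.8e-06). HK2, a hexokinase, was the third (0.23 ± 0.05, adjusted p = 0.013), a call lost after quantile normalization (0.15), without Dox replicate 2 (0.21) and without replicate 1 of all groups (0.22).

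Both genes were also measured with the inhibitor present. UAP1L1 rose by 0.78 ± 0.08 to 4.10 ± 0.40 FPKM with Dox + inhibitor, against 1.97 ± 0.07 FPKM with the inhibitor, and its interaction term was -1.72 ± 0.11. GNPDA1 rose by 0.38 ± 0.08 to 41.9 ± 2.9 FPKM with Dox + inhibitor, against 32.1 ± 3.4 FPKM with the inhibitor, and its interaction term was -0.82 ± 0.11. Both were named for a large Dox difference in libraries that also enter the interaction, so these terms are a description.

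Inhibitor alone gave 1 higher and 5 lower calls among the 14 supply genes, beside 11.7% higher and 26.3% lower over all tested genes. UGDH, the dehydrogenase that makes UDP-glucuronic acid, stood at 35.4, 40.0 and 42.1 FPKM with the inhibitor, against 23.95, 25.4 and 28.65 FPKM in vehicle, a rise of 0.57 ± 0.09 (adjusted p = 0.00042). With Dox UGDH was at -0.20 ± 0.09 (adjusted p = 0.14). UGP2, which makes UDP-glucose, fell by 0.49 ± 0.16 on the log2 scale (adjusted p = 0.033), UAP1 fell by 0.44 ± 0.13 (adjusted p = 0.024) and HK1 fell by 0.38 ± 0.09 (adjusted p = 0.0051). The UGP2 and UAP1 calls were lost under both rescalings, when the compared groups alone were fitted, and without vehicle replicate 2, vehicle replicate 3 or inhibitor replicate 1. The UGP2 call was also lost without the filter and without inhibitor replicate 2, and its value without these single libraries ranged from -0.54 to -0.34.

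**Figure D3:**
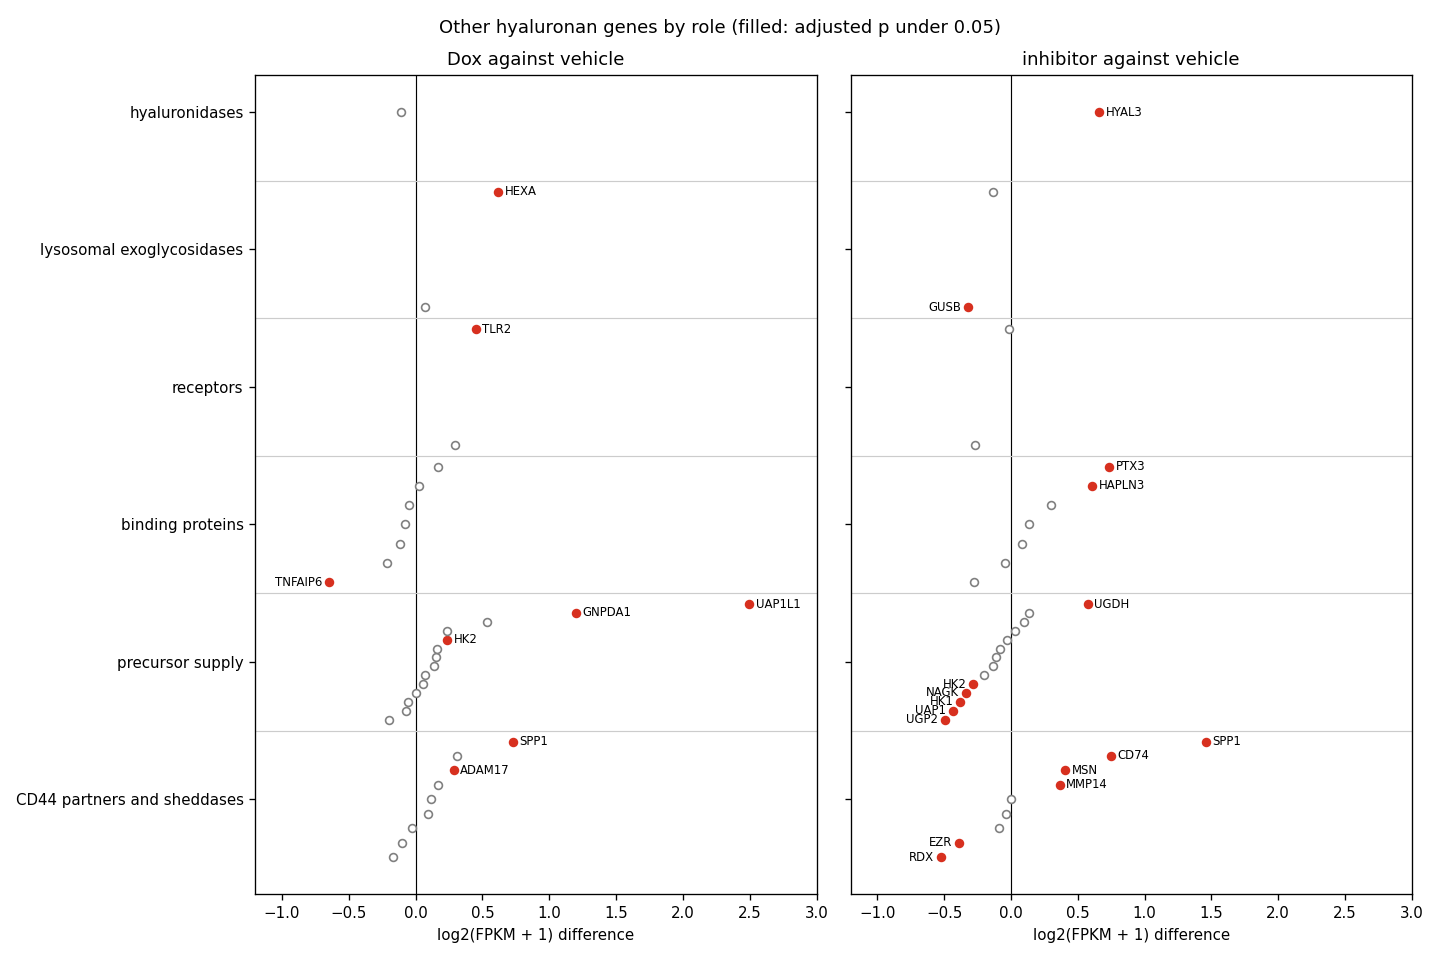
Log2(FPKM + 1) differences of the 35 tested genes of hyaluronan metabolism other than the 7, by role, for Dox against vehicle (left) and the inhibitor against vehicle (right); filled and named points have an adjusted p under 0.05. UAP1L1 lies farthest to the right with Dox at 2.5 and SPP1 with the inhibitor at 1.46.

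Among the other receptors, 2 of 7 were tested. TLR2, a pattern-recognition receptor that hyaluronan fragments can engage, rose to 3.59 ± 0.13 FPKM with Dox, against 2.36 ± 0.20 FPKM in vehicle (0.45 ± 0.10, adjusted p = 0.011). HMMR, the motility receptor and a mitotic gene, varied most between replicates, at 5.90, 12.6 and 17.9 FPKM with the inhibitor, against 7, 16.8 and 20.7 FPKM in vehicle. Replicate 1 was the low one in both groups, and each inhibitor library lay below the vehicle library of the same number. The HMMR difference was -0.27 ± 0.39 (adjusted p = 0.62) in the limma fit without pairing, whose SE includes the spread between replicate numbers. VCAN, the hyaluronan-binding proteoglycan versican, showed the same low replicate 1, at 61.8, 108 and 129 FPKM with the inhibitor, against 64.9, 114 and 127 FPKM in vehicle. HMMR and VCAN are named because of that low replicate, seen in their values. Among other listed genes RDX, UGP2, UAP1 and SPP1 were also lowest in replicate 1 of both groups. GUSB and HK1 were highest there.

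The 7 tested hyaluronan-binding proteins gave 1 lower call with Dox, beside 7.31% of all tested genes, and 2 higher calls with the inhibitor, beside 11.7%. TNFAIP6 (TSG-6), which loads heavy chains onto hyaluronan, fell to 0.57, 0.58 and 0.41 FPKM with Dox, against 1.21, 1.32 and 1.61 FPKM in vehicle (-0.65 ± 0.11, adjusted p = 0.0023). PTX3, a pentraxin that works with TNFAIP6 in the hyaluronan matrix, stood at 1.49, 1.05 and 1.29 FPKM with the inhibitor, against 0.50, 0.36 and 0.25 FPKM in vehicle (0.73 ± 0.11). PTX3 reached 1 FPKM only in libraries with the inhibitor, so it entered the fit through them and had to differ; its call is no support for the count. HAPLN3, a link protein, rose to 10.3 ± 0.9 FPKM with the inhibitor, against 6.46 ± 0.85 FPKM in vehicle (0.61 ± 0.11, adjusted p = 0.0012). TNFAIP6 was below 1 FPKM in every Dox library and entered the fit through the others, so its Dox call is no support for the count either. TNFAIP6 and PTX3 lie near 1 FPKM, where the added 1 holds differences down.

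CD44 partners and sheddases gave 2 higher calls of 9 with Dox, beside 10.6% of all tested genes, and 4 higher and 2 lower with the inhibitor, beside 11.7% and 26.3%. SPP1 (osteopontin), a secreted CD44 ligand, stood at 356, 381 and 394 FPKM with Dox, against 199, 229 and 258 FPKM in vehicle (0.73 ± 0.14, adjusted p = 0.0035). In the inhibitor libraries SPP1 was at 492, 700 and 718 FPKM, against the same vehicle libraries (1.46 ± 0.14, adjusted p = 1.2e-05). With Dox + inhibitor SPP1 was at 561, 592 and 638 FPKM, which overlapped the inhibitor libraries (-0.07 ± 0.14, adjusted p = 0.71). Its interaction term was -0.80 ± 0.19 (adjusted p = 0.052, and 0.0028 with the replicate number as a block). That block also ties Dox to vehicle and Dox + inhibitor to Dox libraries, which were not taken as paired. The SPP1 term was also called among genes with mean FPKM at least 5 (-0.80), after median-ratio scaling (-0.83) and without vehicle replicate 3 (-0.89). It was called as well without inhibitor replicate 1 (-0.97) and without replicate 1 of all groups (-0.88), and under no other alternative. ADAM17, a sheddase of membrane proteins, was called with Dox (0.28 ± 0.08, adjusted p = 0.03). That call was lost after median-ratio scaling (0.23) and without any one of vehicle replicates 1 and 2 and Dox replicates 1, 2 and 3 (0.24 to 0.31).

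With the inhibitor, CD74, a chain that pairs with CD44 in signalling, rose to 62.6, 61.4 and 53.2 FPKM, against 41.55, 34.4 and 29.2 FPKM in vehicle (0.75 ± 0.11, adjusted p = 0.00031). Of the ERM linkers between CD44 and actin, MSN (moesin) rose by 0.40 ± 0.07 (adjusted p = 0.00093), whereas RDX (radixin) was lower by -0.52 ± 0.17 (adjusted p = 0.031). EZR (ezrin), the other linker, fell to 164 ± 16 FPKM with the inhibitor, against 215 ± 11 FPKM in vehicle (-0.39 ± 0.08, adjusted p = 0.0021), and is named after its values were seen. The RDX call was lost under both rescalings (-0.41 and -0.42), without the filter, when the compared groups alone were fitted, and without vehicle replicate 2, vehicle replicate 3 or inhibitor replicate 1 (-0.49 to -0.32). The summed epithelial markers also differed between groups, at 505 to 548 FPKM with Dox + inhibitor, 437 to 458 with Dox, 667 to 801 with the inhibitor and 560 to 652 in vehicle. KRT8, the largest of them, had means of 273, 223, 358 and 295 FPKM in the same order. EPCAM, called in no comparison, had 47.4, 47.6, 49.7 and 51.4 FPKM. The part of these markers in the results above was not tested.

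For Dox + inhibitor against the inhibitor, 4 of the 35 listed genes were called, all higher, as deposited: UAP1L1, GNPDA1, HK2 and ADAM17. Over all tested genes 12.2% were called higher and 6.06% lower. With the replicate number as a block over all 12 libraries, 18 were called, 14 higher and 4 lower. The check of pairing was met for this comparison, but the block also ties libraries not taken as paired. The HK2 call (0.26 ± 0.05, adjusted p = 0.0084) was lost after quantile normalization, and the ADAM17 call (0.34 ± 0.08, adjusted p = 0.015) after median-ratio scaling, when the compared groups alone were fitted, and without Dox + inhibitor replicate 2 or 3. Over all genes the same block gave 4548 calls, against 2304 without it. For Dox + inhibitor against Dox, 8 were called higher and 7 lower, beside 11.3% and 20.8% of all genes. Those called higher include HYAL3, PTX3 and TNFAIP6, which were below 1 FPKM in every Dox library, so their calls are no support for the count. For the interaction 0 were called higher and 2 lower, UAP1L1 and GNPDA1, beside 0.909% and 1.91% of all genes.

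The genes whose 3 differences from vehicle lay nearest to those of CEMIP were TFE3, C21orf91, UAP1L1, GPNMB and SPINK1, by root mean square distance over 3 log2 differences and 12649 tested genes. The distances were 0.28 for TFE3, 0.30 for C21orf91, 0.30 for UAP1L1, 0.37 for GPNMB and 0.39 for SPINK1. C21orf91, of poorly known function, had means of 4.81 FPKM with Dox + inhibitor, 8.32 with Dox, 1.01 with the inhibitor and 1.46 in vehicle. GPNMB, a membrane glycoprotein used as a marker of translocation carcinoma, had 13.4, 58.6, 7.71 and 7.02 FPKM in the same groups, and SPINK1, a secreted trypsin inhibitor, 0.79, 7.15, 0.187 and 0.107 FPKM. In each of these genes the Dox mean was the highest of the 4 and the Dox + inhibitor mean came next. All differences share the same vehicle libraries, and likeness was measured on the values that chose CEMIP. The added 1 FPKM holds the CEMIP Dox difference at 2.29, against 5.09 with 0.1 added. The nearest genes were ranked with 1 added only, and another pseudocount could give other genes.

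Nearest to CD44 were LOC284454 (0.03), GLI2 (0.03), CDR2L (0.04), ABCA3 (0.05) and RPL23P8 (0.06). GLI2, a transcription factor of Hedgehog signalling, had means of 4.22 FPKM with Dox + inhibitor, 3.48 with Dox, 5.95 with the inhibitor and 5.45 in vehicle. ABCA3, a lipid transporter, had 2.93, 2.42, 4.40 and 4.17 FPKM in the same groups. RPL23P8 is a ribosomal protein pseudogene whose reads may come from near-identical copies. With Dox RPL23P8 differed from vehicle by -0.47 ± 0.28 (adjusted p = 0.28 in the limma fit). The 5 distances to CD44 were smaller than the 5 distances to CEMIP. Distances were not scaled to the size of the differences, which with Dox were -0.54 for CD44 and 2.29 for CEMIP, so the 2 sets cannot be compared.

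**Figure D4:**
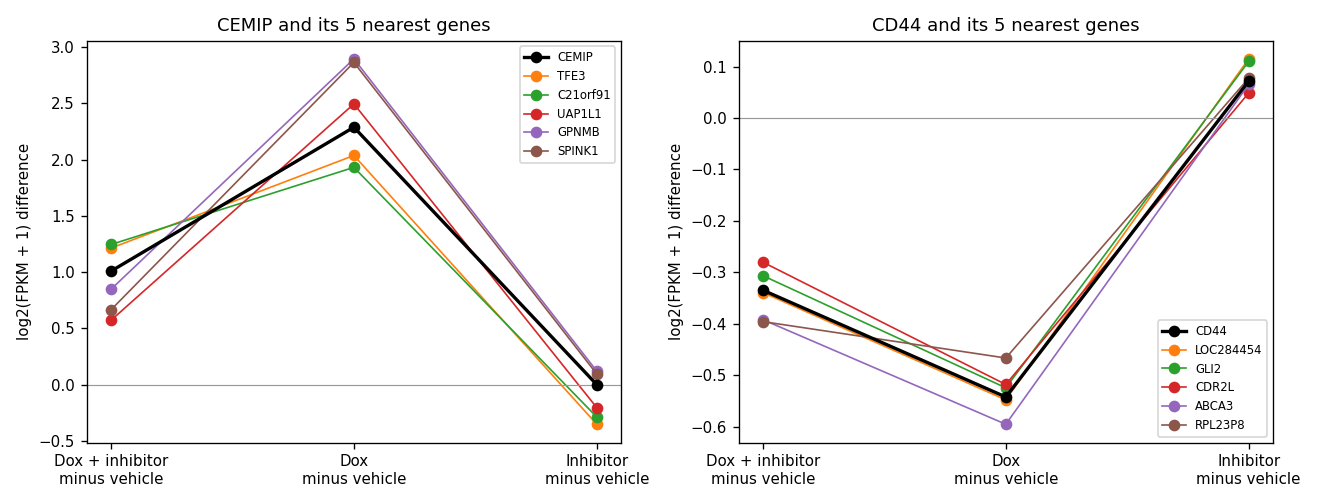
Log2(FPKM + 1) differences from vehicle in the Dox + inhibitor, Dox and inhibitor groups for CEMIP (left) and CD44 (right), in black, and the 5 genes nearest to each. CEMIP stands at 1.01, 2.29 and -0.00 in these groups and CD44 at -0.33, -0.54 and 0.07; the vertical scales differ between the panels.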

How the data were processed

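Poly(A) RNA of 12 HK-2 libraries was measured, 3 in each of 4 groups, with groups and replicate numbers taken from the labels. Per the labels' protocols, RNA was extracted with TRIzol and made into libraries with a stranded TruSeq mRNA kit. The authors deposited FPKM per gene symbol, rounded to 2 decimals, in 12 columns. Salmon 1.9.0, Trim Galore 0.6.7, hg38 and GRCh38.p13 are listed, without a role, per the submitters' processing notes. Not given in the sources used here are the annotation, how transcripts became genes, and the use of strand. Depth is unknown, since the table holds no read totals.

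The analysis used log2(FPKM + 1) of the values as they stand. Genes reaching 1 FPKM in 3 or more libraries were tested, 12649 of 26334 (48%). One model with 4 group means was fitted in limma 3.58.1 (R 4.3.3) with an intensity trend and moderated variances (empirical Bayes), 8 residual degrees of freedom and Benjamini-Hochberg adjustment; it was tested on simulated data. The 7 genes and all lists were chosen with earlier results of these data known, and CEMIP and CD44 were singled out by their Dox differences. Named besides the 7 were, per list, up to 4 called genes with the largest differences for Dox against vehicle, Dox + inhibitor against the inhibitor and the inhibitor against vehicle, the 5 genes nearest to CEMIP and to CD44, and TFE3; HMMR, VCAN and EZR were named outside this rule, after their values were seen. A gene related to the lists is not reported here. Gene coordinates come from GENCODE on GRCh38, and promoter windows from RefSeq on GRCh38.p14.

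Deviations from group means correlated between same-numbered libraries at 0.55, 0.13 and 0.34 for Dox + inhibitor and the inhibitor. The numbers were thus taken to pair these libraries, from the data and not from the labels. The inhibitor and vehicle correlated at 0.69, 0.10 and 0.51 and may be paired as well. The replicate block was fitted over all 12 libraries. Alternatives were the pseudocount, the filter, 2 rescalings, the replicate block, fits to the compared groups only, no trend, and leaving out each library. Leaving out replicate 1 of all groups, and list counts under every alternative, were added after seeing the data.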

Additional observations from a re-analysis of the deposited data

Results flagged for a closer look

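The response to Dox differed with and without the inhibitor for 6 of the genes named, by the interaction term of the limma fit over all tested genes, where 2.82% of genes were called. The term is the Dox difference with the inhibitor minus the Dox difference without it. CEMIP, for which no p is given because it was chosen on these values, stood at -1.28 ± 0.12. UAP1L1 stood at -1.72 ± 0.11, GNPDA1 at -0.82 ± 0.11, GPNMB at -2.17 ± 0.11, SPINK1 at -2.29 ± 0.28 and TFE3 at -0.47 ± 0.10. These genes were named for a large Dox difference or for their likeness to CEMIP, measured in libraries that also enter the term. Their number, their values and their shared sign are therefore a description. CEMIP entered the fit through libraries with Dox, and so did SPINK1, with means of 0.187 FPKM with the inhibitor and 0.107 in vehicle. The TFE3 call was lost without any one of 7 libraries (-0.49 to -0.45) and the SPINK1 call with a pseudocount of 0.1 (-3.49).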

How the results depend on the processing

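Of 545 recomputed values of the 5 tested hyaluronan genes, 539 kept their side of the threshold, 3 lost a call, 3 gained one and 0 called values changed sign. The 3 gained calls were TMEM2 (0.18 and 0.19) and CD44 (0.19 after median-ratio scaling) for the inhibitor against vehicle, and the 3 lost were CD44 for Dox + inhibitor against Dox, at 0.21 without Dox replicate 2 and 0.17 without Dox replicate 3 or Dox + inhibitor replicate 1. That difference ranged from 0.17 to 0.25 without 1 library. For the other named genes 2893 values kept their side, 69 lost and 73 gained a call, and 0 reversed. Without 1 library, genes called numbered 1427 to 2665 for Dox against vehicle (main 2269, lowest without Dox replicate 3, and 1492 without vehicle replicate 2), 1121 to 2920 for Dox + inhibitor against the inhibitor (main 2304, lowest without Dox + inhibitor replicate 3, 1245 without its replicate 2, 1352 without inhibitor replicate 2) and 186 to 420 for the interaction (main 357, lowest without Dox replicate 2, and 198 to 237 without Dox replicate 3, vehicle replicate 2, inhibitor replicate 2 or Dox + inhibitor replicate 2 or 3). Fitting only the compared groups gave 1099 calls for Dox + inhibitor against the inhibitor. Listed genes called there numbered 7 after median-ratio scaling, 15 without replicate 1 of all groups and 3 to 8 without 1 library (8 without vehicle replicate 1, 7 without inhibitor replicate 1), against 4. For the interaction 4 were called without replicate 1 of all groups, against 2.

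With the replicate number as a block, calls numbered 3741 for Dox against vehicle, 4548 for Dox + inhibitor against the inhibitor and 666 for the interaction, and 18 and 4 listed genes were called for the last 2. The block changed no call of the 5 hyaluronan genes. Pairing correlations were 0.02, -0.07 and 0.20 for Dox and vehicle and 0.13, -0.09 and 0.08 for Dox + inhibitor and Dox. The numbers were not taken to pair those. For the inhibitor and vehicle the correlations were 0.69, 0.10 and 0.51. Replicates 1 and 3 were thus above the 0.55 and 0.34 of Dox + inhibitor and the inhibitor, which were taken as paired. The inhibitor and vehicle libraries may be paired as well. The block covers all 12 libraries, also those not taken as paired. Depth is unknown, and HAS1 and HAS2 lie too low for any setting. The cause of these shifts was not tested.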
